A study of Mus musculus with 12 samples.

Results

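Deubiquitinases are proteases that take ubiquitin off other proteins, and the ubiquitin-specific protease (USP), ovarian tumour (OTU) and ubiquitin C-terminal hydrolase (UCH) families hold most of them. Their messenger RNAs were followed in the plantaris, a fast-twitch calf muscle, of mice with and without the gene for REDD1, each either exercised or sedentary. Members were taken by name. A gene entered when its array annotation gave a single symbol made of Usp, Otub, Otud or Uchl and a number, with an l or a lower-case letter after it where the family uses one. Where a gene had several rows, the brightest over all arrays stood for it. The rule found 60 genes among 22180 with a row of their own, and its wording used no measured value beyond the choice of the brightest row. The members were, however, chosen with earlier results of these data known. Of these 60 genes, 53 passed the filter on dim values and were tested, 88.3% against 62.0% of all genes. The filter asked for a log2 signal over 4.56, the table's median, on at least 3 arrays.

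The arrays came from 4 groups of 3 male mice aged 12 weeks, and all mice had been without food for 3 h. Exercised REDD1 knockout mice were sampled 1 h after a single bout of aerobic exercise, and sedentary knockout mice did not exercise. Exercised wild type mice had the same bout and the same delay, and sedentary wild type mice were the controls. All muscles were taken under isoflurane anaesthesia. The labels do not give the extent of the deletion, its genetic background or any pairing of mice. A p-value here sets a difference between groups against the spread between samples within groups, pooled over the 4 groups. For each gene the fit draws that spread toward the spread of genes of similar signal. Standard errors (SE) and confidence intervals rest on the same drawn spread, not on the gene's own spread alone. Values are log2 signals of an Affymetrix whole-transcript array, and a difference of 1 is a doubling. Because the muscle was measured in bulk, fewer cells of a type and less RNA per cell cannot be told apart.

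Ubiquitin is attached by a relay of activating, conjugating and ligating enzymes, and its chains mark proteins for the proteasome, for sorting at membranes or for assembly into signalling complexes. Deubiquitinases reverse or trim these marks, recycle ubiquitin at the proteasome, and edit ubiquitin on histones. In skeletal muscle the ubiquitin-proteasome system is known for its part in atrophy and in the renewal of contractile proteins. REDD1, encoded by Ddit4, restrains the growth kinase mTORC1 and is induced by stress and by glucocorticoids.

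Ddit4 itself measured 6.46, 5.72 and 6.77 in exercised knockout muscle and 5.32, 5.44 and 5.08 in sedentary knockout muscle, against 9.05, 8.40 and 8.62 in exercised and 6.13, 5.83 and 6.02 in sedentary wild type muscle. Knockout values lay below wild type values in exercised and in sedentary muscle, without overlap in either. Averaged over both conditions, knockout was lower by a log2 difference of -1.54 (SE 0.16). All 11 fast-fibre genes in the table passed the filter, as did all 8 slow-fibre genes, so passing does not tell fibre types apart. Myh4, the fastest myosin heavy chain, lay between 13.28 and 13.47 on every array. Against their own 12-array means, the slow-fibre genes averaged -0.66 on replicate 2 of sedentary knockout muscle, their lowest. Their highest was 0.64, on replicate 3 of exercised knockout muscle. The part of fibre content in the member values was not tested. One array stood apart for the deubiquitinases, though not for them alone. On replicate 1 of the exercised wild type group, 22 of the 53 tested members had their lowest value of all 12 arrays, 41.5% against 18.6% of all genes tested. The members other than Otud1 averaged -0.13 there, against their own 12-array means. Related lists also had their lowest mean on this array. These were deubiquitinases outside the naming rule (-0.09), ubiquitin-activating and conjugating enzymes (-0.12) and deubiquitinase partners (-0.11). That array also had the highest mean of 15 immediate-early genes, 1.02 above their own 12-array means, against 0.01 and 0.30 for the other arrays of its group.

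The starts of Otud1 and Otud3 are shown because these genes gave the clearest exercise and genotype differences among the members and because both carry an E-box (CACGTG, in capitals), the motif bound by clock and growth-related basic helix-loop-helix factors. The Otud1 sequence is the 250 bases before its RefSeq start on GRCm38.p6, chr2:19657481-19657730, plus strand, where the E-box lies 54 to 49 bases before the start. For Otud3 a window of 30 bases is given, chr4:138913984-138914013, minus strand, with the E-box 33 to 28 bases before the listed start. That start itself lies 58 bases inside the gene record, so this E-box falls inside the record and not upstream of it.
Otud1: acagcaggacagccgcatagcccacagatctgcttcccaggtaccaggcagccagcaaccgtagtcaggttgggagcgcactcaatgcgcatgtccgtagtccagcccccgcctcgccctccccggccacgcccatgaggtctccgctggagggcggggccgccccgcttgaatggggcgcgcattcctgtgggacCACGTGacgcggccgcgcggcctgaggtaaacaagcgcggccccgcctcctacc
Otud3: cggagctaccacCACGTGacctggctgcca
Both strands were searched for the E-box, which reads the same on each, for the cyclic AMP response element TGACGTCA, which also does, and for the AP-1 site TGACTCA. Of the 53 tested members, 41 had an entry in the RefSeq promoter table used here. An E-box was present in 5 of these 41 (12.2%), namely Otud1, Otud3, Usp16, Usp31 and Usp4, against 8.26% of 10694 tested genes with an entry and 6.05% of 27025 entries of the same length. The AP-1 site was present in 3 (7.32%, Otub2, Usp26 and Usp38), against 3.15% of tested genes and 4.43% of all entries. The cyclic AMP response element was present in 0 of 41, against 2.52% and 1.62%. Usp2 and Usp54, the other members that passed in a comparison below, held none of these motifs. Their listed starts lie far from the 5' ends of their gene records. A match describes these letters only.

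The first question was which deubiquitinase transcripts had changed 1 h after exercise, within each genotype and averaged over both. Tests were limma fits over all 13747 genes that passed the filter, with Benjamini-Hochberg adjustment over all of them and a threshold of 0.05. In knockout muscle 1 of 53 members rose and 0 fell, while 0.276% of all genes tested changed and 0.24% rose. In wild type muscle 1 rose and 0 fell, while 0.567% of all genes changed and 0.473% rose. Averaged over genotypes, 3 of 53 members rose, Otud1, Usp54 and Usp2, and 0 fell, while 1.6% of all genes changed and 1.09% rose. Over all genes 150 rose and 70 fell, against 149 and 41 with arrays centred on their medians.

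Otud1, an OTU enzyme that cuts ubiquitin chains in inflammatory and stress signalling, was the member that rose in both genotypes. It measured 9.52, 10.11 and 9.38 in exercised knockout muscle, against 7.41, 6.82 and 7.71 in sedentary knockout muscle. Exercised wild type muscle gave 10.51, 9.10 and 8.96, against 7.02, 7.21 and 7.39 in sedentary wild type muscle. All 6 exercised arrays lay above all 6 sedentary arrays. The limma difference was 2.36 in knockout muscle (SE 0.33, 5.12-fold, adjusted p = 0.00348) and 2.32 in wild type muscle (SE 0.33, 4.99-fold, adjusted p = 0.0021). Otud1 also had the highest residual SD of the tested members, 0.53, against a member median of 0.131 and a median of 0.163 over all genes tested. The highest Otud1 value, 10.51, came from the wild type array with the high immediate-early genes. Without that array the wild type difference was 1.83 (limma adjusted p = 0.00278), and Otud1 still rose.

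**Figure D1:**
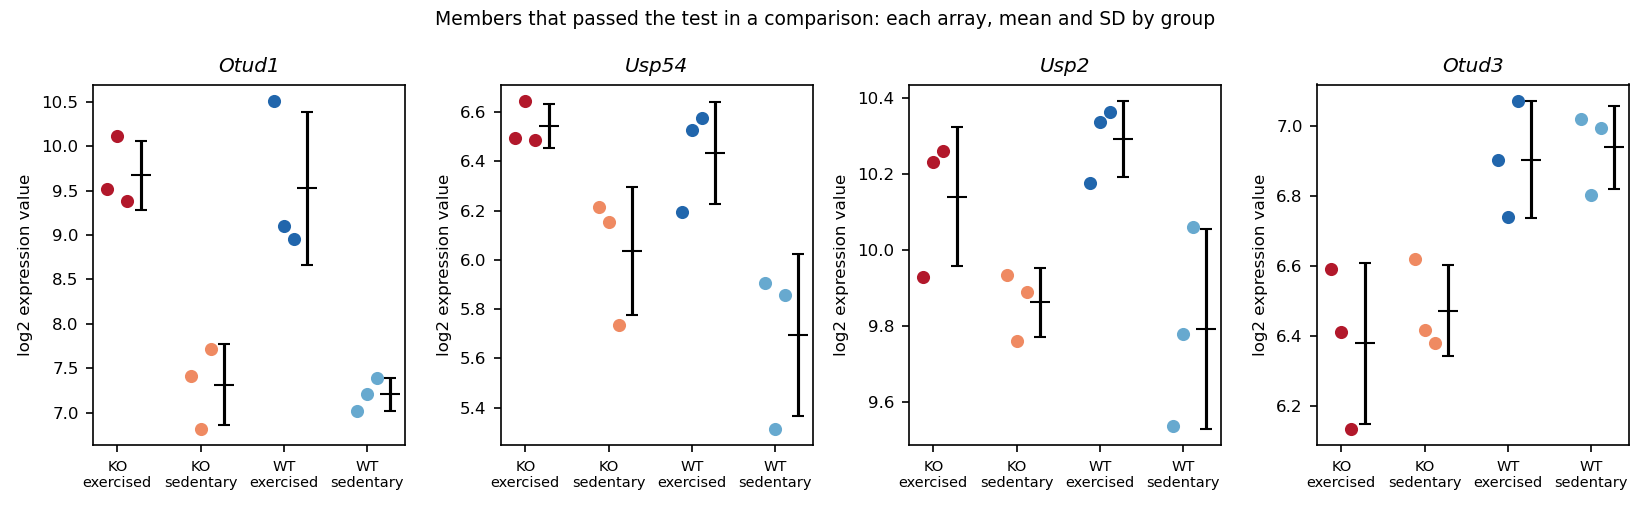
Log2 signal (vertical axis) of Otud1, Usp54, Usp2 and Otud3 on each array, in 4 groups of 3, with the mean and SD of each group. Otud1 separates all 6 exercised from all 6 sedentary arrays, and Otud3 separates all 6 knockout from all 6 wild type arrays.

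Usp54, a USP family protein, measured 6.50, 6.64 and 6.48 in exercised knockout muscle and 6.21, 6.15 and 5.74 in sedentary knockout muscle. Wild type muscle gave 6.19, 6.53 and 6.58 after exercise, against 5.91, 5.32 and 5.86 in sedentary mice. The groups did not overlap within either genotype. The averaged limma difference was 0.62 (SE 0.12, 1.54-fold, adjusted p = 0.0115). Within a genotype the difference did not pass the threshold, being 0.51 in knockout muscle (limma adjusted p = 0.318) and 0.74 in wild type muscle (limma adjusted p = 0.0721). With any of the 12 arrays left out Usp54 still passed, at averaged differences of 0.53 to 0.68 and a highest limma adjusted p of 0.0411. A separate row that the annotation gives to Usp54 and to 1810062O18Rik together showed an averaged difference of 0.24 (limma unadjusted p = 0.0294). That row was fitted and adjusted with all 41345 rows, without the filter, and did not pass (limma adjusted p = 0.554). Its adjusted p is therefore not on the same scale as the others.

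Usp2, which removes ubiquitin from cell-cycle and circadian proteins and is itself an output of the clock, measured 9.93, 10.23 and 10.26 in exercised knockout muscle, against 9.94, 9.76 and 9.89 in sedentary knockout muscle. Wild type values were 10.18, 10.34 and 10.36 after exercise, against 9.54, 9.78 and 10.06 in sedentary mice. The groups overlapped in knockout muscle by 1 exercised array and did not overlap in wild type muscle. The averaged limma difference was 0.39 (SE 0.09, 1.31-fold, adjusted p = 0.0376), with 0.28 in knockout (limma adjusted p = 0.524) and 0.50 in wild type muscle (limma adjusted p = 0.118). The Usp2 call held without replicate 1 of exercised knockout, replicate 1 of exercised wild type or replicate 3 of sedentary wild type muscle, and was lost without any of the other 9 arrays, at limma adjusted p-values of 0.0559 to 0.105. The mean of 11 clock genes, each set against its own 12-array mean, was 0.03, 0.07 and 0.11 in exercised and -0.04, -0.15 and -0.04 in sedentary knockout muscle. The same mean was 0.02, 0.17 and 0.12 in exercised wild type muscle, against -0.25, -0.08 and 0.03 in sedentary wild type muscle. The 11 genes went both ways. After exercise 8 were higher in knockout muscle (median 0.08, range -0.83 to 1.58) and 5 in wild type muscle (median -0.004, range -0.71 to 1.74). Ciart was called higher by limma in both genotypes, and Per1 in wild type muscle. Both Usp2 and the clock mean were lowest in wild type muscle on sedentary replicate 1, and the part of the clock genes in the Usp2 result was not tested.

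Among the other members, 50 did not pass for the averaged exercise difference, and for 49 of them the whole 95% confidence interval lay within 0.5 of 0. The widest bounds were -0.47 for Usp42 and 0.53 for Uchl1. At an unadjusted p under 0.05 there were 7 of 53 members, against 11.2% of all genes tested. Besides the 3 that passed these were Usp42 (-0.27), Usp48 (-0.17), Usp53 (0.19) and Usp50 (0.17), with limma adjusted p-values of 0.214, 0.32, 0.34 and 0.397. Usp42 and Usp48 encode nuclear enzymes that act on histones and transcription regulators. Within genotypes the unadjusted count was 5 of 53 in knockout muscle, against 8.93% of all genes, and 6 of 53 in wild type muscle, against 8.21%. Groups of 3 did not overlap for 8 members in knockout muscle, 7 higher and 1 lower, against 13.9% of all genes, 7.13% higher and 6.77% lower. In wild type muscle they did not overlap for 10 members, 5 higher and 5 lower, against 12.9%, 5.75% higher and 7.14% lower. In wild type muscle the smallest unadjusted p after Otud1, Usp54 and Usp2 was that of Usp45 (-0.26). In knockout muscle Usp48 (-0.27) and Usp47 (0.22) came next after Otud1 and Usp54. Without replicate 1 of exercised wild type muscle the Usp45 value was -0.14.

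**Figure D2:**
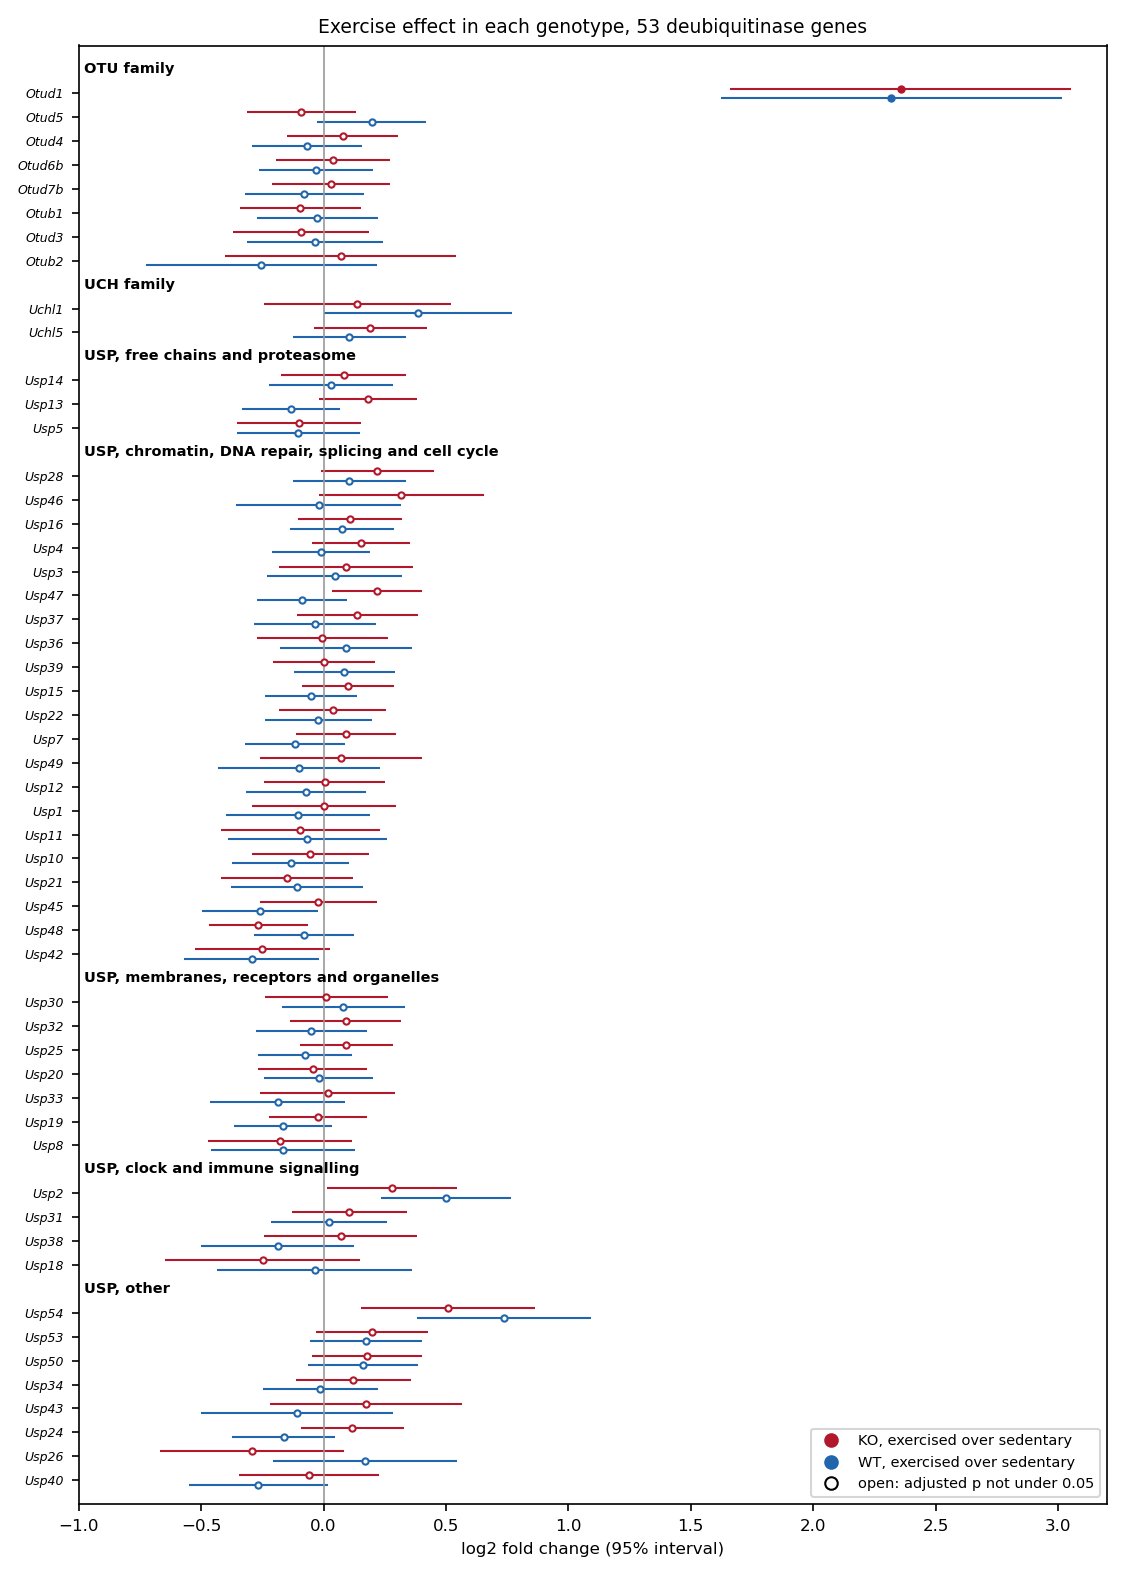
Exercised minus sedentary log2 difference with its 95% confidence interval (horizontal axis) for each of the 53 tested members, in knockout and in wild type muscle, grouped by family and role, with filled points for an adjusted p under 0.05. Otud1 lies near 2.3 in both genotypes, and the other members lie between -0.29 and 0.74.

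By family and role, the other OTU members gave small values. Otud6b, a regulator of protein synthesis, had an averaged exercise difference of 0.00 (SE 0.08, limma adjusted p = 0.994). Otub1, which holds back ubiquitin-conjugating enzymes, averaged 7.39 ± 0.05 in exercised and 7.49 ± 0.24 in sedentary knockout muscle, and 7.46 ± 0.02 in exercised and 7.49 ± 0.12 in sedentary wild type muscle (SD, n = 3 each). Its groups overlapped in both genotypes. Otud5, an X-linked OTU enzyme of interferon signalling, measured 6.59, 6.38 and 6.33 in exercised wild type muscle against 6.27, 6.25 and 6.20 in sedentary wild type muscle, without overlap, yet the difference of 0.20 did not pass (limma adjusted p = 0.697). It was 0.12 without replicate 1 of exercised wild type muscle. In knockout muscle its exercised values were 6.16, 6.35 and 6.33, against 6.27, 6.41 and 6.43 in sedentary mice, and the groups overlapped.

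Of the UCH family, Uchl1 and Uchl5 were tested. Uchl1, abundant in neurons, measured 5.57, 5.75 and 5.59 in exercised and 5.39, 5.35 and 5.75 in sedentary knockout muscle, and 5.54, 5.71 and 5.82 in exercised and 4.87, 5.31 and 5.73 in sedentary wild type muscle. Exercised and sedentary arrays overlapped in both genotypes, and the averaged difference was 0.26 (SE 0.13, limma adjusted p = 0.466). It was 0.15 without replicate 1 of sedentary wild type muscle, where Uchl1 was lowest. All 5 Schwann cell and nerve markers in the table passed the filter, and their mean deviation ranged from -0.43 to 0.60 in exercised and from -0.35 to 0.68 in sedentary knockout muscle. The range was -0.45 to 0.78 in exercised and -0.46 to -0.23 in sedentary wild type muscle, and its part in the Uchl1 values was not tested. Uchl5, which trims ubiquitin chains on the proteasome, measured 7.74, 8.003 and 7.83 in exercised knockout muscle, against 7.71, 7.62 and 7.67 in sedentary knockout muscle. Those groups did not overlap, and the difference of 0.19 did not pass (limma adjusted p = 0.674) and was 0.12 without replicate 2 of exercised knockout muscle. In wild type muscle its exercised values of 7.61, 7.90 and 7.97 overlapped the sedentary values of 7.76, 7.76 and 7.65.

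The USP members of free-chain and proteasome work were Usp5, which takes apart unanchored chains, Usp13, its close relative, and Usp14, which sits on the proteasome. Their averaged exercise differences were -0.10, 0.02 and 0.06, and 0 of the 3 passed. Among membrane and organelle members, Usp25, which acts on proteins of endoplasmic reticulum degradation, had 0.01 (SE 0.06). Usp19, which has a form anchored in the endoplasmic reticulum and has been studied in muscle wasting, measured 8.12, 7.99 and 8.06 in exercised and 8.25, 7.97 and 8.02 in sedentary knockout muscle. Wild type values were 7.85, 7.89 and 7.95 after exercise, against 8.07, 8.03 and 8.09 in sedentary mice. The groups overlapped in knockout muscle and did not in wild type muscle, where the difference of -0.17 did not pass (limma adjusted p = 0.731). Usp18, which removes the ubiquitin-like protein ISG15, reached its highest value, 6.08, on replicate 1 of sedentary knockout muscle, where the mean of 5 interferon-stimulated genes was also highest, 0.32 above their own means. Its averaged exercise difference was -0.14, and -0.05 without that array. Usp18 and the interferon mean did not pair on every array. The next highest Usp18 value, 5.76 on replicate 2 of sedentary wild type muscle, came with a mean of -0.06. Its lowest, 5.09 on replicate 1 of that group, came with -0.01. The lowest interferon mean, -0.25 on replicate 3 of exercised wild type muscle, came with a Usp18 value of 5.14. The relation was not tested.

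The signs of the small differences were counted with and without the array that stood apart. In knockout muscle 36 of 53 members were higher after exercise (median 0.07), against 49.4% of all genes (median -0.00). In the same comparison 1 of 8 matrix and fibroblast markers, all tested, was higher after exercise (median -0.63), with 0 called by limma and 5 at an unadjusted p under 0.05. Their mean deviation ranged from -0.32 to -0.19 in exercised and from -0.22 to 1.14 in sedentary knockout muscle, the 1.14 being replicate 3, and from -0.12 to 0.13 in exercised and -0.19 to -0.09 in sedentary wild type muscle. For exercise in knockout muscle, 7 of 8 slow-fibre (median 0.36), 9 of 11 fast-fibre and 3 of 5 Schwann cell and nerve markers were higher. So were 1 of 8 endothelial, 1 of 8 macrophage and leukocyte and 0 of 4 adipocyte markers. The endothelial marker Kdr was called lower by limma. The part of any of these markers in the member counts was not tested. Without replicate 3 of sedentary knockout muscle, 33 of 53 members were higher in knockout muscle after exercise (median 0.06), against 50.01% of all genes. In wild type muscle 17 of 53 were higher (median -0.04), against 45.0% of all genes (median -0.02). Without replicate 1 of exercised wild type muscle, 28 of 53 were higher in wild type muscle (median 0.02), against 52.0% of all genes. On that array 42 of the 53 members lay below their own 12-array mean, with a median deviation of -0.16, against -0.05 for all genes tested.

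**Figure D3:**
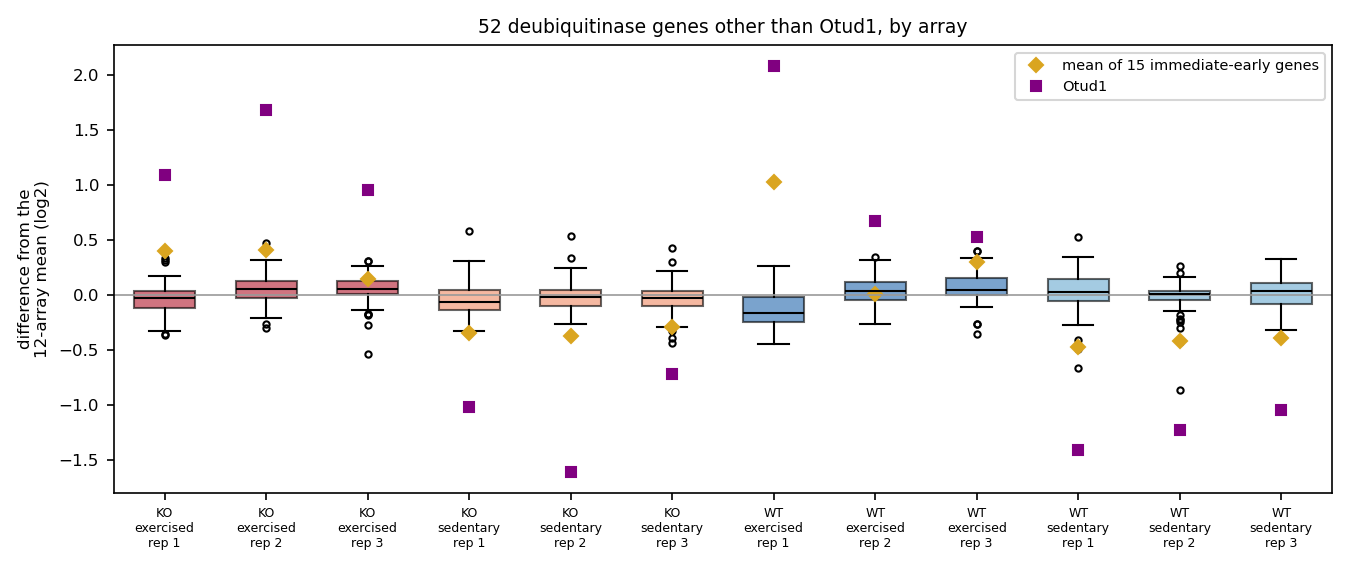
Difference from the 12-array mean (vertical axis, log2) on each array, as box plots of the tested members other than Otud1, with Otud1 as squares and the mean of 15 immediate-early genes as diamonds. The box of replicate 1 of exercised wild type muscle lies lowest, while its immediate-early mean, 1.02, lies highest.

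The next question was whether the exercise response depended on REDD1, tested as the exercise difference in knockout minus that in wild type muscle. By limma 0 of 53 members passed, as did 0% of all genes tested, and the smallest member adjusted p was 0.997. Ddit4 itself was at -1.66 (SE 0.31, limma unadjusted p = 8.4e-05) and did not pass either (limma adjusted p = 0.633). The count of 0 therefore does not show that members responded alike in both genotypes. At an unadjusted p under 0.05 there were 2 members, Usp47 and Usp13, against 4.51% of all genes. For Otud1 the difference was 0.04 (SE 0.46) with a 95% confidence interval of -0.95 to 1.02, so a difference between genotypes of up to about a doubling lies inside it. For 33 of 53 members the interval lay within 0.5 of 0, and for 52 within 1.

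Usp47, which takes part in base excision repair and signalling, measured 10.71, 10.84 and 10.94 in exercised and 10.54, 10.66 and 10.62 in sedentary knockout muscle, and 10.57, 10.76 and 10.77 in exercised and 10.77, 10.72 and 10.86 in sedentary wild type muscle. Exercised arrays lay above sedentary ones in knockout muscle and overlapped them in wild type muscle. The difference of the exercise differences was 0.30 for Usp47 (SE 0.12). Usp13 measured 10.99, 11.27 and 11.05 in exercised and 10.78, 10.95 and 11.04 in sedentary knockout muscle, and 10.72, 10.85 and 10.90 in exercised and 10.87, 11.002 and 10.99 in sedentary wild type muscle. The corresponding value was 0.31 for Usp13 (SE 0.13), followed by Usp24 (0.28) and Otud5 (-0.29). Without replicate 1 of exercised wild type muscle the Usp24 value was 0.18 and that of Otud5 was -0.21. This difference was above 0 for 37 of 53 members (median 0.08), against 53.2% of all genes, and for 28 of 53 (median 0.01) without replicate 1 of exercised wild type muscle.

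The last question was which members differed between knockout and wild type muscle. Averaged over conditions, 1 of 53 members, Otud3, was lower in knockout muscle and 0 were higher, while 0.546% of all genes changed and 0.335% were lower. Otud3 encodes an OTU family deubiquitinase. It measured 6.59, 6.41 and 6.14 in exercised knockout muscle, against 6.90, 6.74 and 7.07 in exercised wild type muscle. Sedentary knockout muscle gave 6.62, 6.42 and 6.38, against 7.02, 6.80 and 6.99 in sedentary wild type muscle. All 6 knockout arrays lay below all 6 wild type arrays.

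The averaged limma difference for Otud3 was -0.49 (SE 0.09, 1.41-fold lower, adjusted p = 0.0257). It was -0.52 in exercised muscle (limma adjusted p = 0.22) and -0.47 in sedentary muscle (limma adjusted p = 0.318), and neither passed alone. With each of the 12 arrays left out in turn the difference ran from -0.55 to -0.43. The averaged call held without replicate 1 of exercised or of sedentary knockout muscle, replicate 1 or 2 of exercised wild type muscle or replicate 2 of sedentary wild type muscle, and it was lost without any of the other 7 arrays, at limma adjusted p-values of 0.0512 to 0.0835. The averaged exercise difference of Otud3 was -0.06.

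Genes beside Otud3 on chromosome 4 were examined after the Otud3 values were seen, taking the 10 nearest tested genes on each side. For the averaged genotype difference 9 of these 20 had an unadjusted p under 0.05, 45% against 9.36% of all genes tested, with 6 lower and 3 higher in knockout muscle. For the averaged exercise difference it was 0 of 20. Capzb, which encodes the beta subunit of the actin-capping protein of the Z-disc, passed by limma (-0.30, SE 0.05, adjusted p = 0.0211). Mul1, a mitochondrial ubiquitin ligase, was at -0.34 and did not pass (limma adjusted p = 0.053). The values ran from -0.43 for Tmco4 to 0.41 for Pla2g2a.

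**Figure D4:**
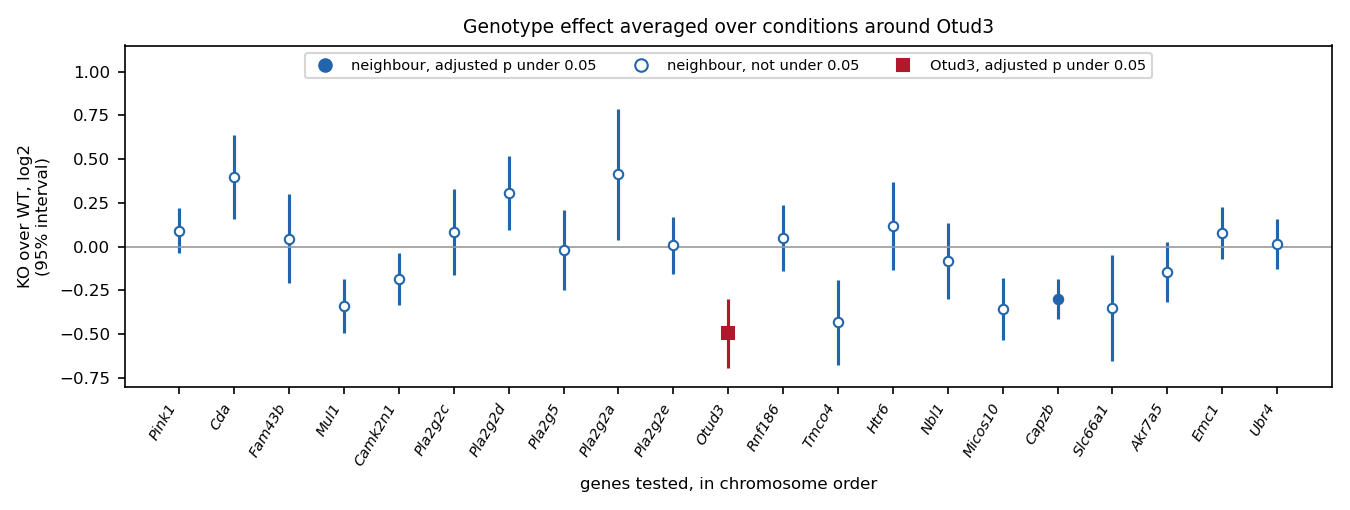
Knockout minus wild type log2 difference averaged over conditions, with its 95% confidence interval (vertical axis), for Otud3 and the 10 tested genes on each side of it, in gene order (horizontal axis). Otud3 lies at -0.49, and its neighbours run from -0.43 to 0.41.

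In exercised mice 0 of 53 members differed between knockout and wild type by limma, while 0.175% of all genes tested changed. Of all genes, 13 were higher and 11 lower in knockout muscle, against 11 and 15 with quantile normalization. At an unadjusted p under 0.05 there were 4, Otud3, Usp13 (0.28), Usp46 (0.38) and Usp48 (-0.23), against 6.58% of all genes. Groups did not overlap for 6 members, 4 higher and 2 lower in knockout muscle, against 11.7% of all genes, 6.06% higher and 5.67% lower. Usp46, which acts with WD-repeat partners and is known for a role in the nervous system, measured 6.08, 5.99 and 5.96 in exercised knockout muscle against 5.58, 5.52 and 5.79 in exercised wild type muscle. These did not overlap, whereas in sedentary muscle the knockout values of 5.73, 5.38 and 5.95 overlapped the wild type values of 5.83, 5.32 and 5.79.

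In sedentary mice 0 of 53 members differed by limma, while 0.138% of all genes changed. Ddit4 itself, at -0.71, did not pass in sedentary muscle (limma adjusted p = 0.411). At an unadjusted p under 0.05 there were 2 members, Otud3 and Usp24, against 7.7% of all genes. Groups did not overlap for 9 members, against 13.1% of all genes. All 9 were lower in knockout muscle, where 7.73% of all genes were lower and 5.35% higher without overlap. Usp24, a large nuclear and cytoplasmic enzyme, measured 8.75, 8.84 and 8.87 in sedentary knockout muscle, against 9.14, 9.05 and 9.05 in sedentary wild type muscle, without overlap. Its difference was -0.26 (SE 0.10, limma adjusted p = 0.521). After exercise the Usp24 groups overlapped, at 8.82, 8.99 and 8.997 in knockout muscle against 8.72, 9.05 and 8.99 in wild type muscle.

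Averaged over conditions, 1 member had an unadjusted p under 0.05, Otud3 itself, against 9.36% of all genes. The next by p were Usp48 (-0.13), Usp54 (0.23) and Usp46 (0.21), with limma adjusted p-values of 0.576, 0.592 and 0.602. Without replicate 2 of sedentary wild type muscle, Usp54 and Usp46 were both at 0.13. For 50 of the 52 members that did not pass, the 95% confidence interval lay within 0.5 of 0. In exercised muscle 35 of 53 members were higher in knockout than in wild type, against 49.3% of all genes. Without replicate 1 of exercised wild type muscle the count was 23 of 53, against 43.0% of all genes. In sedentary muscle 21 of 53 were higher, against 46.0%.

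**Figure D5:**
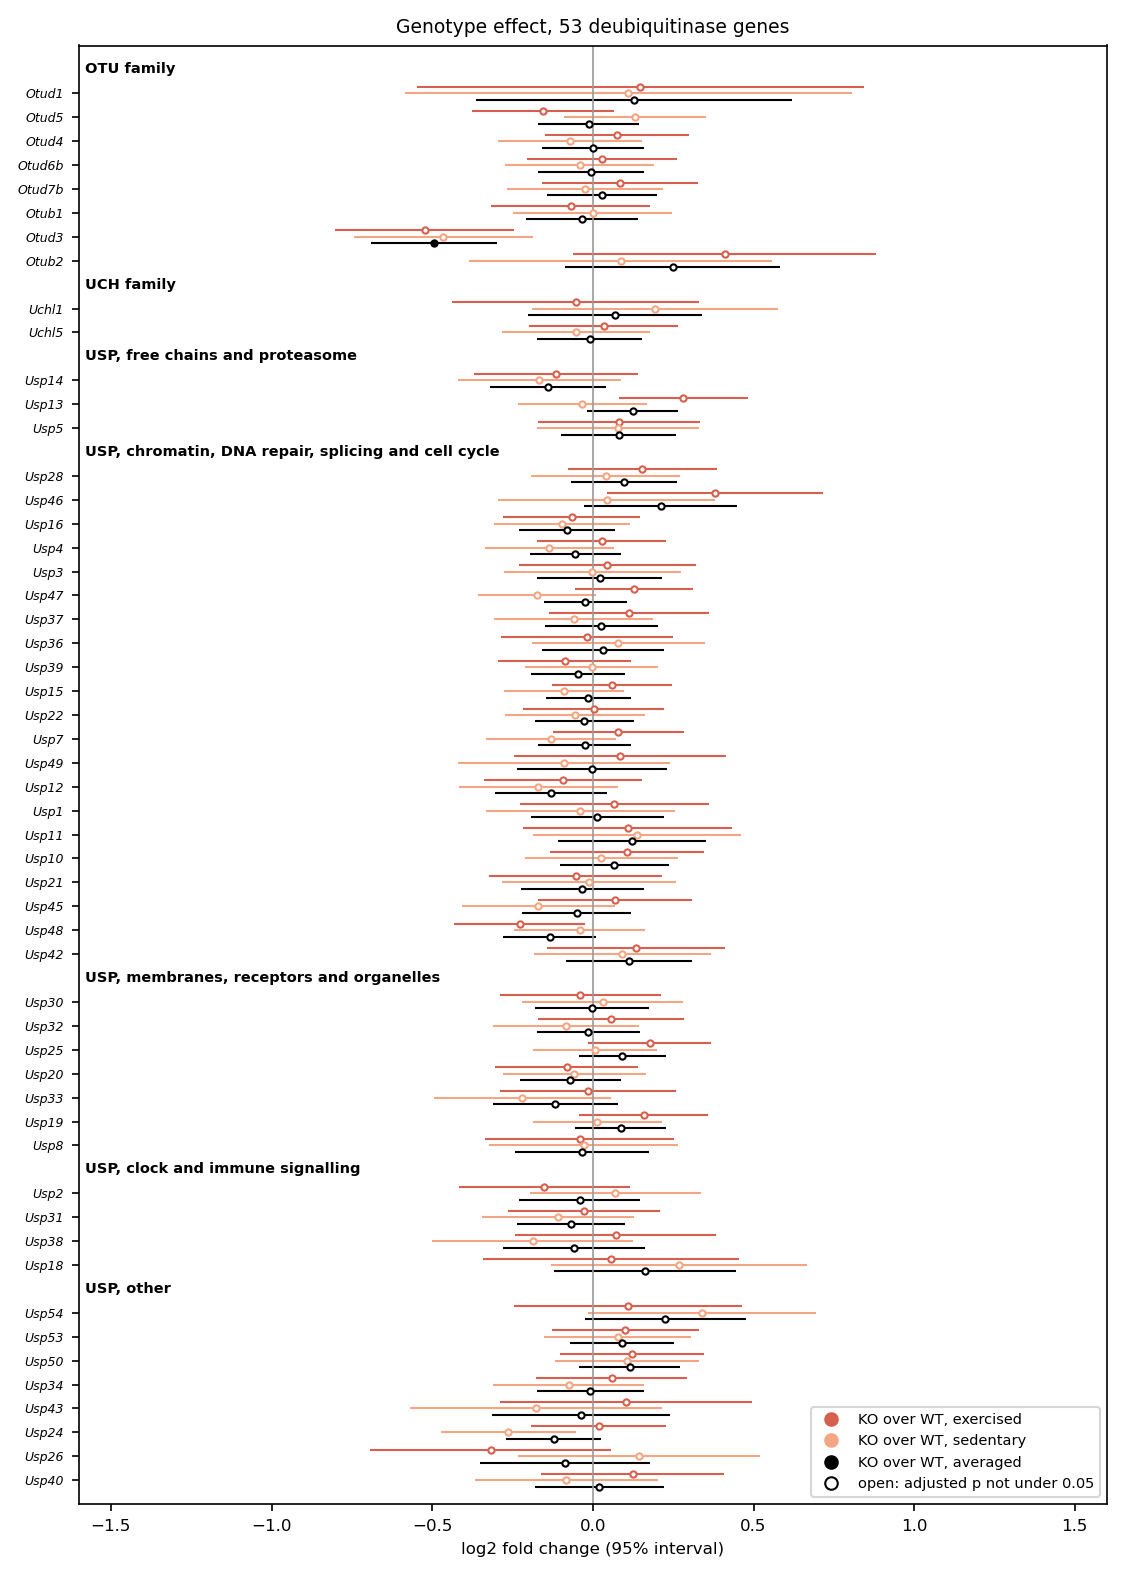
Knockout minus wild type log2 difference with its 95% confidence interval (horizontal axis) for each of the 53 tested members, in exercised muscle, in sedentary muscle and averaged. Otud3 has the lowest averaged value, -0.49, and is the member that passed.

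Other genes of the pathway were read from lists, and those named here were picked after their values were seen, as were Otub1, Usp5 and Usp53 above. Of 27 deubiquitinases outside the naming rule, 26 were tested, and 0 passed in any of the 7 comparisons by limma, with 0 to 5 at an unadjusted p under 0.05. At an unadjusted p under 0.05 for the averaged exercise difference there were 5, against the 11.2% of all genes given above. Josd1, a Josephin-domain deubiquitinase, was at 0.38 (limma adjusted p = 0.0581), and Otulin, which cuts linear ubiquitin chains, at 0.34 (limma adjusted p = 0.0943). Stambpl1, a metalloprotease relative of the endosomal enzyme Stambp, was at -0.36 (limma adjusted p = 0.0718), and the remaining pair, Mindy1 and Mysm1, were both at -0.18. Of 28 ubiquitin-activating and conjugating enzymes, all tested, 0 passed in any comparison by limma, with 0 to 6 at an unadjusted p under 0.05, the 6 being for averaged exercise. The highest of these, Ube2t, a conjugating enzyme of DNA crosslink repair, was at 0.42 (limma adjusted p = 0.105). Of 12 partner proteins of deubiquitinases, 11 were tested, and 0 passed in any comparison by limma, with 0 to 2 at an unadjusted p under 0.05. The polyubiquitin and ubiquitin fusion genes had no row with a single symbol and were not analysed here.

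The 7 members that did not pass the filter were Otud6a, Otud7a, Uchl3, Usp29, Usp35, Usp44 and Usp51. Their 12-array means ran from 2.55 for Usp29 to 4.25 for Otud6a, and their values exceeded the table median on at most 1 array each. Usp26, just inside the filter, exceeded it on 3 arrays, with a mean of 4.35. Uchl4 appeared only in a row shared with Uchl3, and that row was not used.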

How the data were processed

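Total RNA of mouse plantaris from 12 arrays was measured on an Affymetrix whole-transcript array. The authors deposited 1 table of log2 values with 41345 rows, made with Partek per the submitters' processing notes; background correction and normalization are not given in the sources used here, and the log base was read from the range, 0.357 to 13.9. Array medians ran from 4.52 to 4.60. Arrays give no read depth, so the number of arrays limits the precision. Rows were named through the platform annotation, which gave 1 symbol for 23521 rows, several for 1814 and none for 16010. Rows with several symbols or none were left out, and the brightest row stood for a gene.

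Genes were tested with limma 3.58.1 (R 4.3.3), 1 mean per group, an intensity trend and 8 residual degrees of freedom, with Benjamini-Hochberg adjustment over 13747 genes and a threshold of 0.05. The variance of each gene was moderated by empirical Bayes toward the trend, which adds prior degrees of freedom to the 8. The test was run first on simulated data. Alternatives were no filter, median centring, quantile normalization, only the compared groups in the fit, no trend, the mean of all rows of a gene, and each array left out in turn.

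Named by rule were members that passed limma in any comparison, the 4 with the smallest p in each, the member with the highest mean of each role list, and Otud1, Usp2, Usp18, Uchl1, Usp14 and Usp19; other names were picked after their values were seen. The members and the gene lists were chosen with earlier results of these data known. Neighbours of Otud3 were added after its values were seen. Promoter sequences are from RefSeq (GRCm38.p6).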

Additional observations from a re-analysis of the deposited data

How the results depend on the processing

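For 38 member differences examined, 660 values were recomputed, of which 636 kept direction and side of the threshold, 18 lost the call, 2 gained it and 4 turned direction. The turned values were differences near 0 between genotypes, averaged over conditions. Otud1, at 0.13, ran from -0.0121 to 0.375 with 1 array left out, turning without replicate 3 of exercised wild type muscle. Uchl1, at 0.07, ran from -0.0386 to 0.178, turning without replicate 1 of sedentary wild type muscle. Usp2, at -0.04, ran from -0.105 to 0.0263, and turned without replicate 1 of exercised knockout muscle (0.0121) and without replicate 3 of sedentary wild type muscle. Usp2 lost its averaged exercise call without the filter (limma adjusted p = 0.0506) and without the intensity trend (limma adjusted p = 0.0741). The causes were not tested. Leaving out 1 array gave 0 to 1 called members for the averaged genotype difference and 1 to 2 for exercise in wild type muscle, where Usp2 passed without replicate 3 of sedentary wild type muscle (limma adjusted p = 0.0349) and Usp54 without replicate 3 of sedentary knockout muscle (limma adjusted p = 0.0389), and otherwise 2 to 3 for averaged exercise and 1 to 1 in knockout muscle. Over all genes, the calls ran from 38 to 149 for the averaged genotype difference (75 with all arrays), 5 to 40 in exercised muscle (24), 6 to 27 in sedentary muscle (19), 144 to 220 for averaged exercise (220), 16 to 71 for exercise in knockout (38) and 46 to 90 in wild type muscle (78). Without the trend, 42 genes were called for the averaged genotype difference and 24 for exercise in knockout muscle. With only the compared groups fitted, 13 were called between genotypes in exercised muscle and 25 for exercise in knockout muscle. Median centring left 149 genes higher and 41 lower for averaged exercise, against 150 and 70. No paired analysis was possible because the labels give no replicate numbers that tie samples of different groups. With 3 arrays per group, the 95% confidence interval of a member's difference within 1 genotype reached a median of 0.25 to either side, which limits what was detectable.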

Other observations

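Several members had more than 1 row, and the differences of the rows did not always have the same sign. The 2 rows of Uchl1 had averaged exercise differences of 0.26 and -0.13, and those of Usp12 had -0.03 and 0.16. The 3 rows of Usp46 had 0.15, -0.05 and -0.19. Of these rows, 0 passed by limma with all 41345 rows fitted and adjusted together. The smallest limma unadjusted p of these differences in that fit was 0.0812. In each pair the first value is that of the brightest row, which stood for the gene.

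Around Usp54, 2 of the 20 nearest tested genes were called higher in knockout muscle, averaged over conditions. Mss51, a mitochondrial protein of skeletal muscle, and Plau, the urokinase plasminogen activator, made up this pair. Around Otud1, 0 of 20 neighbours were called for this genotype difference, and around Usp2 it was 0 of 20. Over all genes tested, 0.546% were called for it, and 29 of 13747 were called higher. Around Otud1, 1 of 20 neighbours, the predicted gene Gm13363, was called for the averaged exercise difference, against 1.6% of all genes tested.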
